A study of Mus musculus with 9 samples.

Results

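The comparison described here set 3 libraries of macrophages treated with Torin-2 against 3 libraries treated with vehicle, which is 6 of the 9 libraries of the series, and it covered every gene. The members were all genes of the count table, 53342 in number, of which 12511 had enough counts in the 9 libraries to be tested. The macrophages were grown from the bone marrow of wild-type C57BL/6J mice of both sexes aged 8 to 12 weeks, with the bones of each animal kept apart. They received Torin-2 or vehicle for 2 h, and then homogenised spinal cord of C57BL/6 mice (10 mg per mL, or 1% by weight) for a further 24 h with the compound still present. Cells of every group therefore received the homogenate, and no group without it is analysed here. The third group received rapamycin on the same schedule and is used here only to set its values beside those of Torin-2. The dose of either compound is not given in the sources used here. The homogenate came from cords of many animals pooled together.

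Torin-2 is an inhibitor that competes with ATP for the catalytic site of mTOR, the kinase that couples nutrient and growth factor signals to protein synthesis, transcription and autophagy. It acts on both mTOR complexes, whereas rapamycin binds mTOR through FKBP12 and acutely blocks only part of the output of mTORC1. The complex mTORC2 activates AKT, which keeps FOXO transcription factors out of the nucleus. Macrophages are phagocytes that read their surroundings through lectins, Fc receptors, cytokine receptors and Toll-like receptors, and that answer with chemokines, proteases and complement proteins under the control of lineage factors such as PU.1 and C/EBP proteins.

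Total counts were 19644262 to 22686047 in the vehicle libraries, 18413668 to 24044329 in the Torin-2 libraries and 16116666 to 21900603 in the rapamycin libraries. Replicate 3 of every group stood apart from replicates 1 and 2 on the third principal component, which held 9.69% of the variance. The cells carried macrophage transcripts: Adgre1, the gene of the surface marker F4/80, read 951 ± 70.3 CPM with vehicle and 681 ± 25.1 CPM with Torin-2 (mean ± SD, n = 3, CPM being counts per 1000000 of the library total scaled by the TMM factor), and Msr1, a scavenger receptor, read 723 ± 63.7 and 205 ± 15.1 CPM. Over the macrophage identity genes, of 16 tested, 4 rose, 9 fell and 3 did not pass, and the list summed to 14044 to 18507 CPM with vehicle and 16119 to 18069 CPM with Torin-2. Markers of lymphocytes summed to 1.07 to 1.35 CPM with vehicle and 0.481 to 0.903 CPM with Torin-2, and 8 of the 12, Cd3e among them, had no read in the 6 libraries. The 9 dendritic cell markers had 10 or fewer reads each over the 6 libraries. Of 11 neutrophil markers, 6 (Ly6g, Mpo, Elane, Ngp, Retnlg and S100a9) had no read. Transcripts of the spinal cord were present in every library: 14 oligodendrocyte and myelin markers summed to 485 to 621 CPM with vehicle and 371 to 428 CPM with Torin-2. Fibroblast markers, 13 in number, summed to 25.6 to 92.8 and 11.7 to 34.2 CPM, with the lowest sum in replicate 3 of both groups.

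Gene classes outside metabolism did not move alike with Torin-2. Transcription regulators tilted upwards, secreted proteins and transporters tilted downwards, and receptors as a whole divided nearly evenly between higher and lower. Long noncoding RNAs that passed the test were mostly higher. Over all 12511 genes, 65.4% had an adjusted p under 0.05 (edgeR, quasi-likelihood, Benjamini-Hochberg), 32.5% being higher and 32.9% lower with Torin-2, and the median log2 difference was -0.01. A rise of at least 2-fold was found for 10.1% of the genes and a fall of at least 2-fold for 10.6%, and for 70.2% no library of one group lay within the range of the other. These shares are the background for every count that follows, and the class and list members were chosen with earlier results of these data known. Of 596 transcription factor and coregulator genes tested, 320 rose, 72 fell and 204 did not pass, so that 53.7% were higher and 12.1% lower, with a median log2 difference of 0.41. Of 225 genes of secreted proteins, 45 rose, 87 fell and 93 did not pass (median -0.37). Of 320 receptor genes, 114 rose, 104 fell and 102 did not pass (median -0.03). Of 610 annotated long noncoding genes, 189 rose (31.0%), 74 fell (12.1%) and 347 did not pass (median 0.39). Without replicate 3 of every group, the replicate that stood apart, the counts higher and lower were 319 and 60 for regulators, 58 and 94 for secreted proteins, 119 and 102 for receptors and 182 and 62 for long noncoding genes. In bulk RNA, fewer cells of a type and less RNA per cell cannot be told apart, and with no spike-in each value is relative to the rest of the library.

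**Figure D1:**
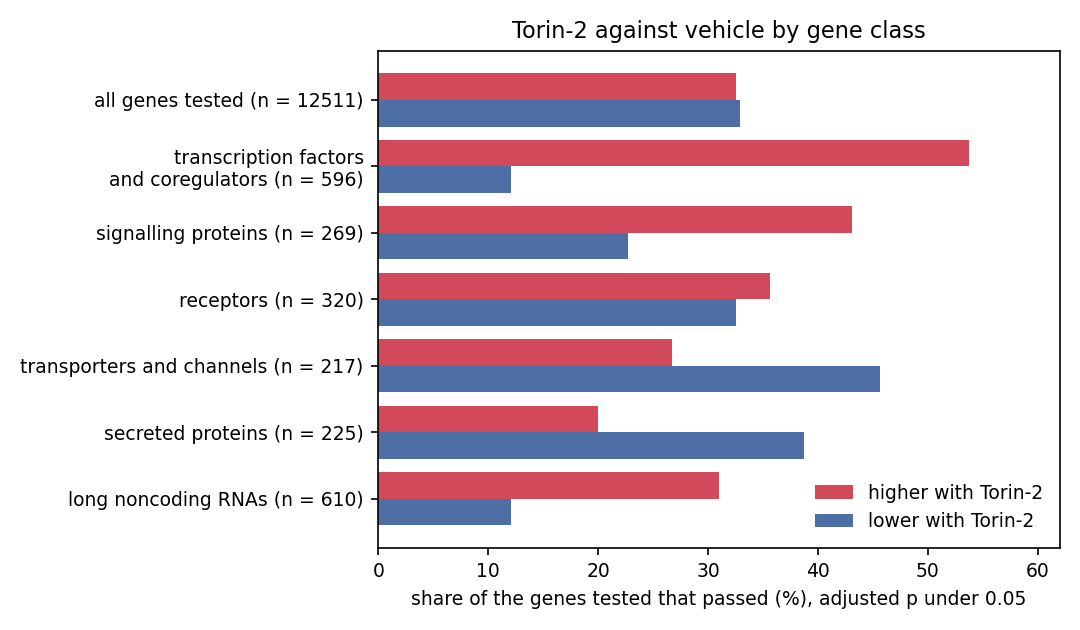
Share of the genes tested in each class that were higher (red) or lower (blue) with Torin-2 than with vehicle at an adjusted p under 0.05, with the number of genes tested beside each class name. Transcription regulators had 53.7% higher and 12.1% lower, against 32.5% and 32.9% over all genes.

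The tilt of the transcription regulators was present at every level of expression. When all tested genes were divided into 4 bins of equal size by mean CPM over the 6 libraries, the shares of regulators that rose were 27.1%, 54.5%, 67.6% and 71.00% from the lowest to the highest bin. The shares over all genes in the same bins were 18.00%, 34.1%, 38.7% and 39.2%. Between 10.7% and 14.4% of the regulators fell in each bin.

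Among the regulators, the largest named rise was that of Cited2, a coactivator that competes with HIF-1α for CBP and p300. Cited2 read 10.5, 12.5 and 10.4 CPM in vehicle replicates 1 to 3 and 188, 175 and 190.3 CPM in Torin-2 replicates 1 to 3. The groups were far apart, and the log2 difference was 4.05 ± 0.10 (± SE, adjusted p = 1.38e-10, edgeR, Benjamini-Hochberg). With rapamycin Cited2 read 72.4 ± 8.93 CPM, and the direct difference of Torin-2 from rapamycin was 1.35 ± 0.09 (adjusted p = 4.21e-07, edgeR, Benjamini-Hochberg). Hif1a itself fell, from 198 ± 4.95 to 109 ± 4.28 CPM (-0.87 on the log2 scale).

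The lists of factors with a basic leucine zipper differed in their counts. In the group of ATF, CREB, C/EBP and PAR factors, of 23 tested, 14 rose, 7 fell and 2 did not pass, with a median log2 difference of 0.51. Over the list of AP-1 and related factors, of 15 tested, 5 rose, 2 fell and 8 did not pass (median -0.14), and over the list that holds NRF and BACH factors, of 7 tested, 3 rose, 2 fell and 2 did not pass (median -0.16). Crebrf, a regulator of CREB3 that is known as a nutrient-sensitive gene, read 11.5, 10.9 and 12.4 CPM with vehicle and 137, 134 and 148 CPM with Torin-2, a log2 difference of 3.59 ± 0.10 (adjusted p = 1.7e-10, edgeR, Benjamini-Hochberg). Its partner Creb3, whose exons overlap those of Tln1, fell from 77.6 ± 7.28 to 32.8 ± 2.700 CPM (-1.24). Atf5 and Atf4, 2 factors of the amino acid response, rose by 1.79 and 1.54 on the log2 scale, Atf4 from 100.3 ± 13.6 to 292 ± 28.6 CPM. With rapamycin Atf5 read 62.4 ± 13.4 CPM beside 55.2 ± 5.13 CPM with vehicle, and Atf4 read 108 ± 23.6 CPM. Within the C/EBP family the members parted. Cebpd, a factor of the inflammatory response whose exons overlap those of Spidr, rose by 1.86, while Cebpa, a factor of the myeloid lineage, fell from 339 ± 17.3 to 230.1 ± 9.76 CPM (-0.56). Cebpe, a factor of late granulocyte differentiation, read 1.84, 2.52 and 2.696 CPM with vehicle and 0.267, 0.106 and 0.0822 CPM with Torin-2, on 9 reads over the 3 Torin-2 libraries, and fell by 3.95 ± 0.45 on the log2 scale (adjusted p = 8.77e-06, edgeR, Benjamini-Hochberg). Without Torin-2 replicate 1 its difference was -4.57.

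The Krüppel-like, EGR and SP zinc fingers were the list with the highest share of rises among the transcription factors: of 18 tested, 15 rose, 2 fell and 1 did not pass, at a median of 1.02. Egr2, an early response factor that also marks alternatively activated macrophages, read 15.03, 11.6 and 13.2 CPM with vehicle and 101, 108 and 109 CPM with Torin-2 (3.00 ± 0.12 on the log2 scale, adjusted p = 1.77e-09, edgeR, Benjamini-Hochberg). Klf9, a glucocorticoid-induced repressor, rose from 4.54 ± 0.282 to 15.97 ± 0.930 CPM, and Klf6, which is known in inflammatory macrophages, rose from 188 ± 6.05 to 463 ± 28.1 CPM. Against these stood Klf2 and Klf4, factors of quiescence and of monocyte differentiation, which were the members that fell. Klf2 read 36.6, 29.9 and 42.8 CPM with vehicle, 9.41, 7.87 and 7.73 CPM with Torin-2 and 69.8, 66.7 and 61.8 CPM with rapamycin. No library overlapped between groups, with rapamycin the highest and Torin-2 the lowest. The Klf2 difference from vehicle was -2.13 ± 0.13 (adjusted p = 4.99e-08) and that from rapamycin -2.99 ± 0.13 (adjusted p = 1.7e-08, both edgeR, Benjamini-Hochberg). Klf4 fell from 6.35 ± 1.94 to 2.08 ± 0.0117 CPM and read 6.64 ± 1.47 CPM with rapamycin.

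Nuclear receptors held more rises than falls: of 21 tested, 13 rose, 3 fell and 5 did not pass, with a median of 0.68. Rora, a constitutively active receptor of the circadian loop, read 7.11, 7.13 and 6.74 CPM with vehicle and 50.6, 50.01 and 57.3 CPM with Torin-2 (2.91 ± 0.10, adjusted p = 5.49e-10, edgeR, Benjamini-Hochberg). The repressors of the same loop, Nr1d1 and Nr1d2, rose by 1.51 and 1.79. Nr2c2, the orphan receptor TR4, rose from 14.8 ± 0.844 to 85.6 ± 6.21 CPM, but 30.7% of its exon bases overlap Mrps25 and the strand of the counting is not known. The glucocorticoid receptor gene Nr3c1 rose from 60.6 ± 0.490 to 127 ± 8.06 CPM (1.07). Nr1h3, the liver X receptor α, fell by 0.36, from 42.7 ± 2.001 to 33.3 ± 2.58 CPM.

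E2F factors, which drive or repress the genes of the cell cycle, were among the regulators that fell. In the list of E2F, p53, RUNX, MEF2, SMAD and Notch, Wnt or Hippo effectors, of 40 tested, 17 rose, 10 fell and 13 did not pass, and the falls were led by E2F members. E2f2, an activator of S-phase genes, read 33.7, 34.9 and 27.2 CPM with vehicle and 6.898, 6.64 and 7.19 CPM with Torin-2 (-2.21 ± 0.12). The atypical repressors E2f7 and E2f8 fell by 3.15 and 3.10, E2f8 from 5.58 ± 1.396 to 0.641 ± 0.140 CPM, and without Torin-2 replicate 1 the E2f7 difference was -4.29. Tfdp1, an E2F dimerisation partner, fell from 69.3 ± 12.8 to 34.4 ± 3.398 CPM, whereas its relative Tfdp2 rose from 3.79 ± 1.097 to 15.7 ± 0.367 CPM. The forkhead list had Foxm1, a mitotic factor, as its single fall (7.89 to 3.78 CPM, mean of vehicle to mean of Torin-2) beside 10 rises of 13 tested. The call of Foxm1 was lost without either of replicates 1 and 2 of either group, at adjusted p values of 0.053 to 0.0728 (edgeR, Benjamini-Hochberg). Among the rises were Foxk1 (1.80), a repressor of starvation genes, and Foxo3 (0.75), a FOXO factor held out of the nucleus by AKT.

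Lineage and helix-loop-helix factors gave further rises from low levels. Lyl1, a blood stem cell factor, read 7.58, 7.72 and 9.34 CPM with vehicle and 60.6, 56.6 and 59.96 CPM with Torin-2, a difference of 2.85 ± 0.10 (adjusted p = 7.36e-10, edgeR, Benjamini-Hochberg). Mitf, a factor of lysosomal and osteoclast genes, rose from 31.6 ± 1.901 to 113 ± 2.25 CPM. Bcl11a, known from B lymphocytes and plasmacytoid dendritic cells, went from 11 reads over the vehicle libraries to 133 reads over the Torin-2 libraries (0.171, 0.146 and 0.193 against 2.41, 1.01 and 2.84 CPM). The lymphocyte and dendritic cell markers were at or near 0 in every library. Ahr, the aryl hydrocarbon receptor, rose from 1.21 ± 0.274 to 5.23 ± 0.745 CPM and read 7.67 ± 0.684 CPM with rapamycin. Of the Id genes, whose products block helix-loop-helix dimers, Id2 fell from 387 ± 20.4 to 200.4 ± 16.95 CPM and Id1 from 9.01 ± 2.12 to 3.605 ± 0.401 CPM, whereas Id3 rose from 8.47 ± 1.41 to 15.1 ± 2.81 CPM. Spic, the factor of red pulp macrophages, fell from 6.54 ± 0.562 to 1.23 ± 0.117 CPM, while its relative Spi1, the gene of PU.1, rose from 200.1 ± 5.85 to 262 ± 2.49 CPM (0.39).

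The large family of Zfp zinc fingers, many of them repressors of transposons, showed the tilt in the widest sample. Of 298 tested, 150 rose and 25 fell, and 50 against 7 did so by at least 2-fold. Zfp935 read 0.557, 0.437 and 0.481 CPM with vehicle and 3.69, 4.73 and 4.27 CPM with Torin-2, and Zfp704 rose from 7.97 ± 2.17 to 34.7 ± 1.63 CPM. Members of this family resemble each other in sequence, so reads may have been divided among them. Chromatin regulators followed: among coregulators and histone writers, of 47 tested, 26 rose, 5 fell and 16 did not pass. The de novo DNA methyltransferase gene Dnmt3a rose from 77.7 ± 1.29 to 232 ± 19.7 CPM and the maintenance enzyme gene Dnmt1 fell from 61.4 ± 5.07 to 35.97 ± 6.53 CPM. Dnmt3a read 79.3 ± 8.75 CPM with rapamycin, and its Torin-2 difference from rapamycin was 1.55 ± 0.08 (adjusted p = 9.67e-08, edgeR, Benjamini-Hochberg). Ezh1 and the deacetylase genes Hdac11 and Sirt3 rose by 1.80, 2.41 and 1.58, and Hdac9 fell by 1.87.

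**Figure D2:**
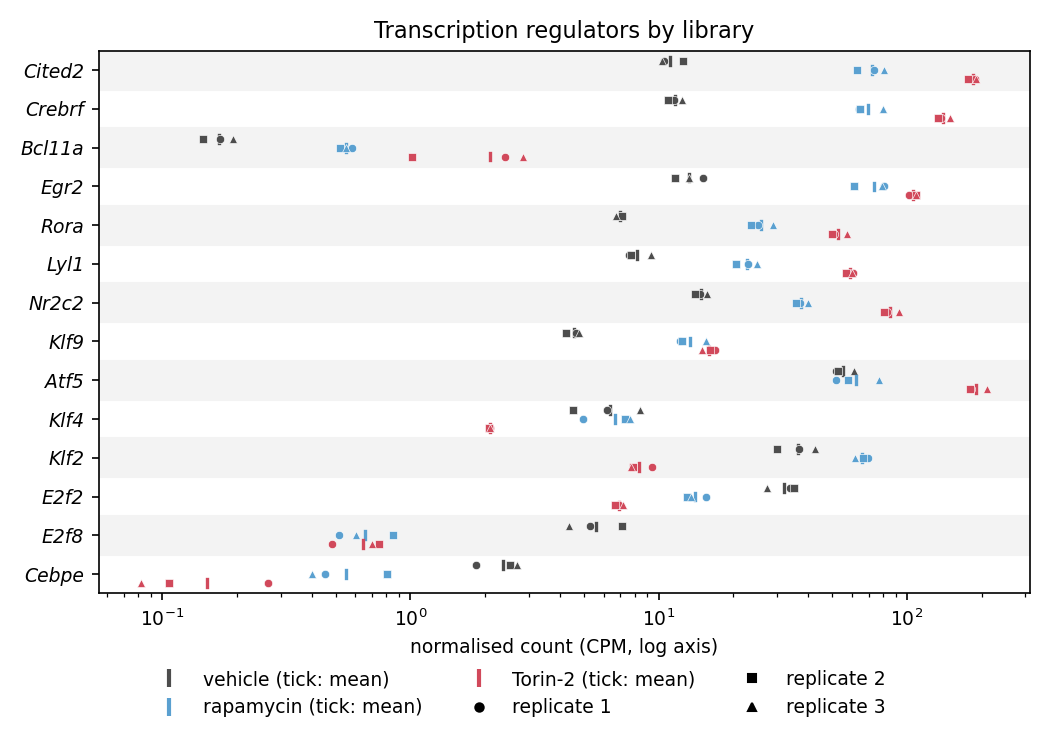
Normalised counts (CPM, log axis) of 14 transcription regulators in each of the 9 libraries, with 1 symbol per replicate, 1 colour per group and a tick at the group mean. Genes are ordered from the highest to the lowest Torin-2 difference; Cited2 stands at 11.1 to 185 CPM (vehicle to Torin-2 means) at the top, and for Klf2 the rapamycin libraries lie above vehicle while the Torin-2 libraries lie below.

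Each of the 10 receptor lists held both rises and falls. The class as a whole had 35.6% of its tested members higher and 32.5% lower, which is near the background of 32.5% and 32.9%. Within the paired immunoglobulin, Siglec, CD300 and TREM receptors, which set the activation threshold of myeloid cells, of 41 tested, 17 rose, 11 fell and 13 did not pass. Fcgr2b, the inhibitory Fc receptor for IgG, read 33.7, 24.8 and 39.3 CPM with vehicle and 273, 248 and 259.6 CPM with Torin-2 (2.99 ± 0.19, adjusted p = 6.12e-08, edgeR, Benjamini-Hochberg). Fcgr1, the high-affinity Fc receptor, fell from 98.04 ± 9.02 to 36.6 ± 5.18 CPM. Cd33 encodes a Siglec, a receptor that binds sialic acid. It read 12.6, 17.3 and 15.2 CPM with vehicle, 87.9, 83.4 and 95.4 CPM with Torin-2 and 15.3, 16.2 and 15.6 CPM with rapamycin. All Torin-2 libraries lay above all others, and the difference from rapamycin was 2.501 ± 0.10 (adjusted p = 1.13e-08, edgeR, Benjamini-Hochberg). Lilra6 also rose from vehicle with no like value under rapamycin (1.14, 7.24 and 1.19 CPM in vehicle, Torin-2 and rapamycin means), although it belongs to a family of near-identical copies. The lipid-binding inhibitory receptor gene Cd300lf read 69.02, 67.7 and 77.5 CPM with vehicle and 12.1, 8.56 and 9.95 CPM with Torin-2 (-2.81 ± 0.12), and 9.04 ± 1.12 CPM with rapamycin.

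C-type lectins and sensors of microbial patterns also held changes in both directions. Clec7a, the β-glucan receptor dectin-1, read 348, 326 and 356 CPM with vehicle and 1504, 1510.2 and 1796 CPM with Torin-2, a rise of 2.22 ± 0.11 (adjusted p = 9.91e-09, edgeR, Benjamini-Hochberg). Clec4a2, an inhibitory lectin, rose from 7.81 ± 0.298 to 43.8 ± 3.81 CPM, and Clec4d rose from 539 ± 28.5 to 1538 ± 106 CPM. Clec10a, a galactose-type lectin of alternatively activated cells, fell from 9.15 ± 0.160 to 1.83 ± 0.606 CPM, and Olr1, the oxidised LDL receptor, fell from 3.64 ± 0.929 to 0.918 ± 0.541 CPM. Over the lectins, of 23 tested, 5 rose, 10 fell and 8 did not pass. Over the Toll-like, NOD-like and nucleic acid sensors, of 30 tested, 9 rose, 10 fell and 11 did not pass. Tlr7, the endosomal sensor of single-stranded RNA, rose from 117 ± 4.76 to 378 ± 6.99 CPM, and Tlr1, a surface sensor of lipopeptides, fell from 18.3 ± 1.36 to 4.05 ± 0.201 CPM. Tlr13, a sensor of bacterial ribosomal RNA, did not pass at 523 ± 23.7 and 553 ± 13.001 CPM.

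Among receptors for cytokines the rises outnumbered the falls. For interleukin and colony stimulating factor receptors, of 27 tested, 14 rose, 8 fell and 5 did not pass, at a median of 0.30. Csf3r, the receptor of the granulocyte factor G-CSF, read 11.2, 9.03 and 13.4 CPM with vehicle and 48.7, 42.7 and 48.2 CPM with Torin-2 (2.05 ± 0.12). Csf3r was on the neutrophil list, whose summed level was 12.4 to 16.3 CPM with vehicle and 45.3 to 50.5 CPM with Torin-2. S100a8, the other neutrophil marker that could be tested, fell from 3.25 ± 0.367 to 1.798 ± 0.525 CPM. Il7r rose from 442 ± 41.4 to 970.1 ± 49.8 CPM and Il6ra rose from 12.7 ± 1.74 to 32.5 ± 1.62 CPM. Il21r, the receptor of interleukin-21, read 87.05, 83.8 and 89.1 CPM with vehicle and 12.03, 11.1 and 12.2 CPM with Torin-2, a log2 difference of -2.88 ± 0.14 (adjusted p = 1.06e-08, edgeR, Benjamini-Hochberg). In the TNF and TGF-β receptor families, of 26 tested, 13 rose, 8 fell and 5 did not pass. The type I TGF-β receptor Tgfbr1 rose from 185 ± 23.9 to 593 ± 31.5 CPM, and Acvr2b, a type II activin receptor, rose from 18 reads in the vehicle libraries to 197 in the Torin-2 libraries (3.48 ± 0.47). Cd40, the costimulatory receptor for T-cell help, fell from 13.03 ± 1.69 to 3.16 ± 0.183 CPM.

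Costimulatory and checkpoint molecules gave 8 rises and 8 falls of 21 tested. Cd83, a marker of mature dendritic cells that activated macrophages also carry, read 17.6, 17.4 and 13.8 CPM with vehicle, 179, 186 and 187 CPM with Torin-2 and 77.6, 72.1 and 73.7 CPM with rapamycin. The 3 groups did not overlap, and the rise over vehicle was 3.50 ± 0.09 (adjusted p = 1.38e-10, edgeR, Benjamini-Hochberg). Dendritic cell markers such as Xcr1 and Ccr7 were at 0 in the 6 libraries. Cd200 and Slamf9 rose by 1.81 and 2.21. Havcr2, the gene of the checkpoint TIM-3, read 99.7, 92.8 and 89.4 CPM with vehicle and 20.4, 18.3 and 17.3 CPM with Torin-2 (-2.34 ± 0.10), and the gene of its ligand galectin-9, Lgals9, fell from 161 ± 7.798 to 52.3 ± 2.96 CPM.

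G protein coupled receptors included both the largest rise and the largest fall among the named receptors. Gprc5c, an orphan receptor, read 0.343, 0.0971 and 0.241 CPM with vehicle and 9.36, 8.61 and 8.096 CPM with Torin-2, on 15 and 534 reads (5.19 ± 0.32, adjusted p = 5.53e-08, edgeR, Benjamini-Hochberg). P2ry13, an ADP receptor, read 8.61, 9.95 and 5.103 CPM with vehicle and 0.535, 0.266 and 0.493 CPM with Torin-2 (-4.16 ± 0.42). Its neighbour in function P2ry12 fell from 8.63 ± 2.72 to 1.01 ± 0.179 CPM and read 1.12 ± 0.393 CPM with rapamycin. Cx3cr1, the fractalkine receptor, read 5.57, 4.61 and 2.98 CPM with vehicle, 0.374, 0.159 and 0.247 CPM with Torin-2 and 5.47, 5.49 and 2.11 CPM with rapamycin, so that the Torin-2 libraries alone were low. Cx3cr1 and P2ry12 stood on the microglia list, of which 6 of 7 tested members fell and whose sum was 385 to 431 CPM with vehicle and 249 to 274 CPM with Torin-2. The part of the homogenate's own RNA in these values was not tested. Ednrb, the endothelin B receptor, fell from 26.8 ± 6.25 to 4.400 ± 1.15 CPM. The chemokine receptor gene Cxcr4 rose from 122 ± 4.103 to 456 ± 4.69 CPM.

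**Figure D3:**
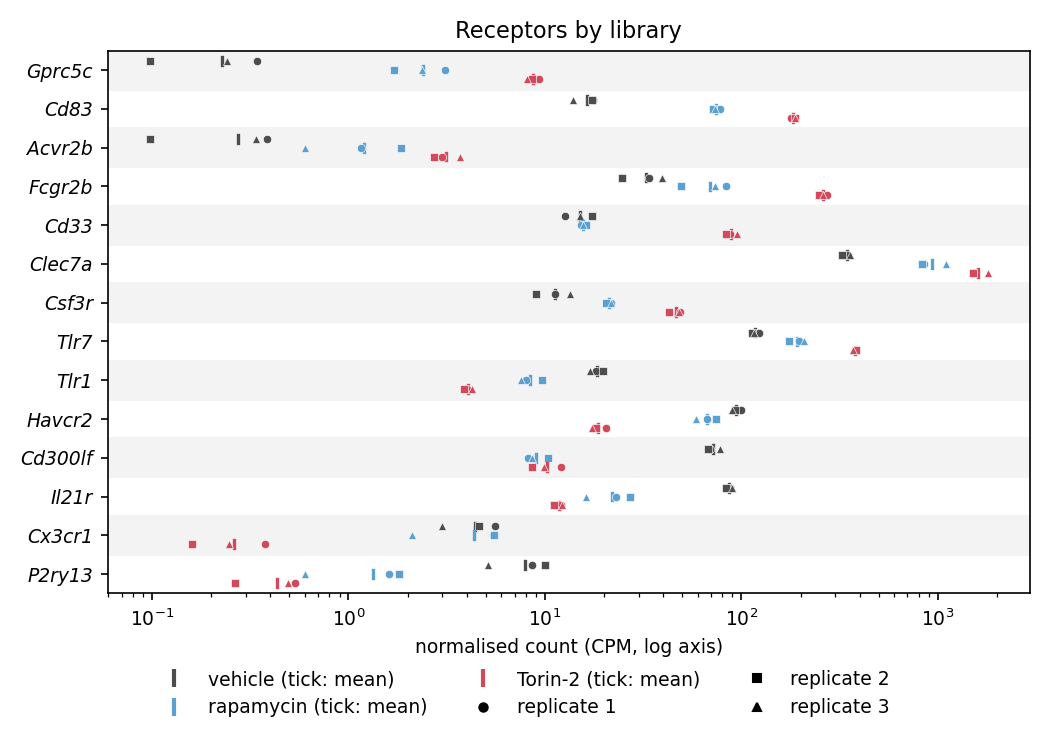
Normalised counts (CPM, log axis) of 14 receptors in each of the 9 libraries, drawn as for the transcription regulators. Gprc5c, Cd83 and Acvr2b head the order and Il21r, Cx3cr1 and P2ry13 close it; for Cx3cr1 the rapamycin and vehicle means were 4.36 and 4.39 CPM.

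Secreted proteins leaned downwards, with 20% of the tested members higher and 38.7% lower against 32.5% and 32.9% over all genes. It was widest in the lowest expression bin (9.38% higher, 33.3% lower) and in the highest (27.4% higher, 54.8% lower). In the bins between, 25.6% and 33.3% were higher and 30.2% and 33.3% lower. The lean also differed from list to list. Complement factors and defence proteins had 17 falls and 2 rises of 25, matricellular and matrix proteins 19 and 6 of 42, and growth factors and morphogens 20 and 10 of 54. Metalloproteinases, ADAM proteases and TIMPs had 8 rises and 6 falls of 25. The lean is one of gene counts and not of summed level. The class summed to 43366 to 49195 CPM with vehicle and 50828 to 55740 CPM with Torin-2. The metalloproteinase list summed to 4633 to 4937 and 18723 to 20598 CPM, and the matricellular and matrix list to 15058 to 15993 and 9417 to 10600 CPM.

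In the list of interleukins, interferons and TNF family ligands, of 20 tested, 4 rose, 5 fell and 11 did not pass, and the member with the largest rise was an antagonist. Il1rn, which encodes the interleukin-1 receptor antagonist, read 116, 87.5 and 119.9 CPM with vehicle, 1235, 1008 and 1477 CPM with Torin-2 and 117, 86.04 and 130.2 CPM with rapamycin. Every Torin-2 library lay above the other 6, and the vehicle and rapamycin libraries overlapped. The difference from vehicle was 3.52 ± 0.18 (adjusted p = 1.42e-08) and that from rapamycin 3.48 ± 0.18 (adjusted p = 8.55e-08, both edgeR, Benjamini-Hochberg). Il1a, an agonist of the same receptor, read 28.3, 31.6 and 33.2 CPM with vehicle and 11.1, 8.87 and 11.5 CPM with Torin-2, a log2 difference of -1.56 ± 0.16. Il18bp, the decoy of interleukin-18, fell from 71.5 ± 16.6 to 20.5 ± 2.96 CPM. Il15 rose from 4.03 ± 0.614 to 7.43 ± 0.873 CPM and Ebi3, a subunit of interleukins 27 and 35 that shares 23.4% of its exon bases with Gm16712, rose from 20.8 ± 1.42 to 45.4 ± 3.64 CPM.

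Chemokines went both ways, with 4 rises and 7 falls of 16 tested. Ccl3, an inflammatory chemokine, read 17.1, 19.8 and 20.3 CPM with vehicle, 44.4, 40.1 and 54.7 CPM with Torin-2 and 10.3, 11.7 and 18.05 CPM with rapamycin, so that Torin-2 lay above vehicle while rapamycin lay below it or within its range. Cxcl16, a scavenger receptor and chemokine whose exons overlap those of Zmynd15, rose from 58.99 ± 5.93 to 163 ± 15.1 CPM. Pf4, platelet factor 4, fell from 115 ± 14.5 to 26.3 ± 1.23 CPM, and Ccl7, a ligand of Ccr2, read 4.11, 8.69 and 5.199 CPM with vehicle and 0.428, 1.22 and 0.205 CPM with Torin-2. The Ccl7 difference was -3.32 ± 0.58, and without Torin-2 replicate 2 it was -4.27.

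Proteases and clotting proteins changed in both directions. In the list of coagulation, plasminogen and serpin genes, of 31 tested, 6 rose, 11 fell and 14 did not pass, at a median of -0.34. Mmp8, the neutrophil collagenase, read 8.86, 7.86 and 7.46 CPM with vehicle and 211, 185 and 209 CPM with Torin-2 (4.64 ± 0.18, adjusted p = 1.59e-09, edgeR, Benjamini-Hochberg). Mmp13, collagenase 3, rose from 9.41 ± 2.27 to 214 ± 20.9 CPM, and Mmp9, gelatinase B, rose from 6.37 ± 0.713 to 46.6 ± 14.3 CPM. Mmp9 was on the list of 9 osteoclast markers, of which 6 were tested, 4 rose, 1 fell and 1 did not pass, and whose sum was 423 to 582 CPM with vehicle and 1097 to 1113 CPM with Torin-2, with Calcr and Oscar at 0 in the 6 libraries. The part of such cells in the Mmp9 values was not tested. Mmp28, epilysin, fell from 2.22 ± 0.625 to 0.341 ± 0.135 CPM. Prss46, a serine protease gene, read 4.796, 5.14 and 3.996 CPM with vehicle, 27.004, 24.8 and 28.4 CPM with Torin-2 and 6.69, 5.68 and 6.72 CPM with rapamycin. F5, coagulation factor V, rose from 15 to 231 reads over 3 libraries (3.96 ± 0.38). Thbd, thrombomodulin, rose from 17.2 ± 2.92 to 43.1 ± 8.38 CPM, and Slpi, an inhibitor of leukocyte proteases, fell from 5.71 ± 1.03 to 1.55 ± 0.390 CPM.

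Growth factors and complement proteins held more falls than rises. Dkk2, an antagonist of Wnt signalling, had the largest rise in the list of growth factors and morphogens: 7 reads in the vehicle libraries and 334 in the Torin-2 libraries, or 0.171, 0.0485 and 0.0963 against 5.67, 5.21 and 5.34 CPM (5.57 ± 0.37, adjusted p = 9.17e-08, edgeR, Benjamini-Hochberg). With rapamycin Dkk2 read 0.342 ± 0.136 CPM. Pdgfc read 4.84, 4.56 and 3.03 CPM with vehicle and 0.481, 0.691 and 0.534 CPM with Torin-2 (-2.86 ± 0.42). Manf, a factor secreted under stress of the endoplasmic reticulum, read 214, 234 and 207 CPM with vehicle and 41.1, 45.8 and 46.03 CPM with Torin-2 (-2.30 ± 0.08). Igf1 fell from 997 ± 30.2 to 511 ± 18.9 CPM and read 1255 ± 33.2 CPM with rapamycin, while the receptor genes Igf1r and Igf2r rose by 1.29 and 1.37. C1qa, a chain of the first complement component, read 367, 355 and 314 CPM with vehicle and 60.2, 56.1 and 48.2 CPM with Torin-2 (-2.66 ± 0.18), and its partners C1qb and C1qc fell by 1.99 and 2.19. Ear2, an eosinophil-type ribonuclease, had 211 reads in the vehicle libraries and 6 in the Torin-2 libraries, and read 5.99 ± 2.14 CPM with rapamycin. It has near-identical relatives, between which reads may have been divided. In the matrix list, Tgm2, transglutaminase 2, fell from 1253 ± 39.9 to 272 ± 16.3 CPM, Col6a1 fell from 3.25 ± 2.33 to 0.344 ± 0.308 CPM and Col15a1 rose from 1.21 ± 0.229 to 8.84 ± 1.04 CPM. Of the 13 fibroblast markers 10 could be tested, and 4 fell and 0 rose, among them Col3a1 (5.61, 4.22 and 1.93 CPM with vehicle, 0.695, 0.159 and 0.123 CPM with Torin-2). Without Torin-2 replicate 1 the difference of Col3a1 went from -3.63 to -4.76 and that of Col6a1 from -3.29 to -4.27, and without vehicle replicate 1 that of Col6a1 was -2.65.

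**Figure D4:**
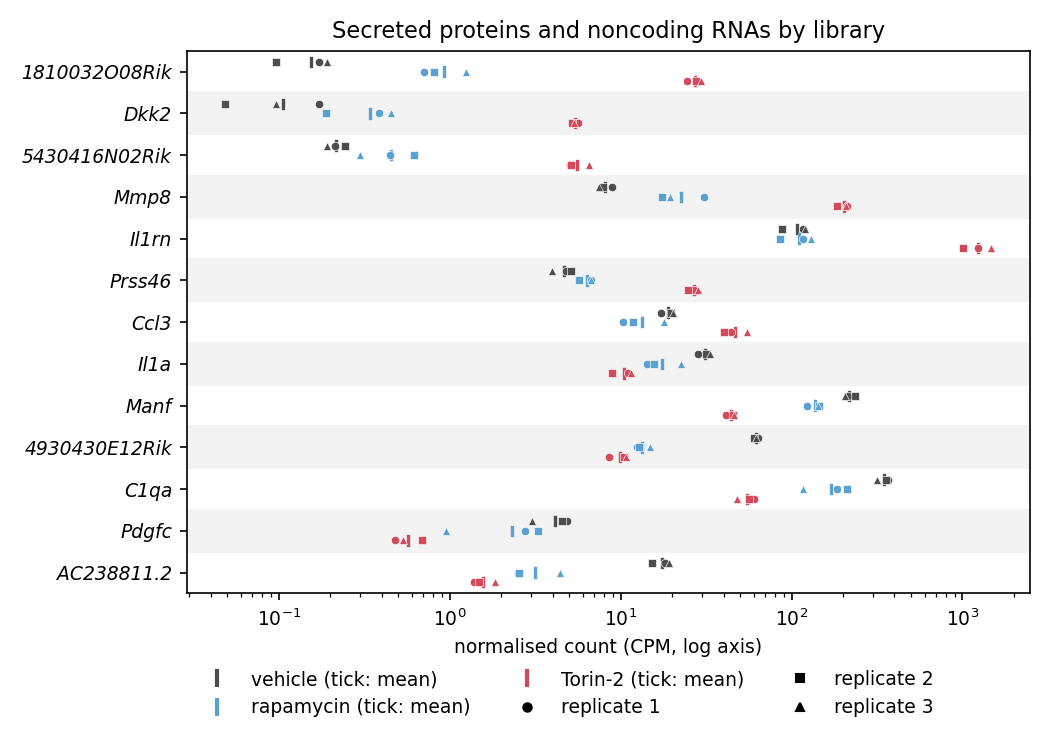
Normalised counts (CPM, log axis) of 9 secreted proteins and 4 noncoding transcripts in each of the 9 libraries, drawn as for the transcription regulators. The noncoding 1810032O08Rik heads the order, and for Il1rn and Prss46 the rapamycin libraries lie near vehicle (rapamycin means 111 and 6.36 CPM).

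Among long noncoding RNAs the rises outnumbered the falls, and they did so in genes free of overlap with other genes. Because the strand of the counting is not known, the 610 annotated long noncoding genes were divided by whether any exon base lies within an exon of another tested gene. Of 261 with no such overlap, 95 rose, 32 fell and 134 did not pass, and of 349 with one, 94 rose, 42 fell and 213 did not pass. The shares that rose were 36.4% and 26.9%, against 32.5% over all genes, and the shares that fell were 12.3% and 12.0%, against 32.9%. Of the long noncoding genes, 526 belonged to the lowest of the 4 expression bins, in which 27.8% of them rose and 10.5% fell, beside 564 rises and 657 falls among all 3128 genes of that bin. The genes without overlap summed to 1048 to 1150.2 CPM in the vehicle libraries and 2204 to 2392 CPM in the Torin-2 libraries.

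The steepest rise was that of 1810032O08Rik, which RefSeq names Snhg16, a host of small nucleolar RNAs. It read 0.171, 0.0971 and 0.193 CPM with vehicle, 24.4, 27.6 and 29.5 CPM with Torin-2 and 0.708, 0.805 and 1.25 CPM with rapamycin, on 10, 1693 and 53 reads. The difference from vehicle was 7.40 ± 0.23 (adjusted p = 3.9e-10, edgeR, Benjamini-Hochberg). 5430416N02Rik, for which RefSeq gives the synonym Adapt33, read 0.214, 0.243 and 0.193 CPM with vehicle and 5.08, 5.102 and 6.49 CPM with Torin-2 (4.65 ± 0.30). 2410006H16Rik rose from 7.01 ± 2.59 to 291 ± 14.3 CPM and Epb41l4aos rose from 1.501 ± 0.319 to 28.3 ± 3.16 CPM. Hosts of small nucleolar RNAs, transcripts whose introns release these guides of RNA modification, had rises in most members: of 15 tested, 12 rose, 1 fell and 2 did not pass, at a median of 2.78. 1810032O08Rik was not counted among them, since the list held it under its RefSeq symbol. Snhg1 read 0.557, 1.55 and 0.915 CPM with vehicle, 92.9, 104 and 101 CPM with Torin-2 and 0.386, 1.14 and 1.003 CPM with rapamycin, and Snhg12 0.814, 0.631 and 0.578, 56.4, 61.3 and 75.6 and 3.86, 3.599 and 8.27 CPM. The rapamycin libraries overlapped those of vehicle for Snhg1 and lay above them for Snhg12. Among other noncoding RNAs known by name, of 22 tested, 9 rose, 3 fell and 10 did not pass. Malat1, a nuclear transcript, read 15.8, 19.7 and 11.1 CPM with vehicle and 42.6, 128 and 55.1 CPM with Torin-2, the highest Torin-2 value being 128 CPM in replicate 2. The Malat1 difference was 2.28 ± 0.36, and without Torin-2 replicate 2 it was 1.65.

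The falls among noncoding genes were fewer, and the largest named one was that of AC238811.2. It read 18.2, 15.3 and 19.1 CPM with vehicle and 1.39, 1.49 and 1.85 CPM with Torin-2 (-3.46 ± 0.22), and 4930430E12Rik read 63.3, 60.3 and 62.3 and 8.61, 10.4 and 10.8 CPM (-2.64 ± 0.10). AI506816 fell from 25.5 ± 0.996 to 6.92 ± 1.14 CPM and read 24.8 ± 7.87 CPM with rapamycin. Gm20412 fell by 2.28, but its exons lie wholly within those of Tgm2, which fell by 2.20, and Gm26778 (-2.09) lies likewise within Kctd12 (-2.11). Bach2os fell by 1.98 while Bach2, with which it shares 24.6% of its exon bases, rose by 1.30. The most strongly counted noncoding gene, Gm42418, of whose exon bases 99.5% overlap CT010467.1, was uneven within the groups, at 6924, 19906 and 3971 CPM with vehicle and 18206, 15258 and 19751 CPM with Torin-2, and did not pass the test. In the fit blocked by replicate number the difference was 1.36 (adjusted p = 0.0187, edgeR, Benjamini-Hochberg), and without vehicle replicate 2 it was 1.70, beside 0.79 from all libraries.

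Sequences at the start of 4 noncoding genes that rose are shown because transcripts that begin with C followed by a run of C and T are the known class whose translation depends on mTOR. Each window runs from 25 bases before the annotated start to 30 bases after it (RefSeq, GRCm38.p6, 5′ to 3′ on the gene's strand), and capitals mark the longest run of C and T that opens with a C within 3 bases of the start.
Snhg1: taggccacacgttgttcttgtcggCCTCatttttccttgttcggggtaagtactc
Snhg12: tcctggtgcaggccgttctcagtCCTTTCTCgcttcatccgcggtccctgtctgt
1810032O08Rik (Snhg16): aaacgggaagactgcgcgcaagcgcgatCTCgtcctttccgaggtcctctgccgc
2410006H16Rik: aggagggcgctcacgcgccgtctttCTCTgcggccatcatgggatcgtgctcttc
They lie at chr19:8723462-8723516 on the plus strand, chr4:132308653-132308707 on the plus strand, chr11:116671635-116671689 on the plus strand and chr11:62602852-62602906 on the plus strand. The runs are 4, 8, 3 and 4 bases long in that order. A run of at least 6 bases opening within 3 bases of the start was present for 12.96% of the genes that rose, 8.801% of those that did not pass and 7.47% of those that fell, among 9281 tested genes matched by symbol to the RefSeq promoter table, and for 8.53% of all 27025 genes in the table. Within the classes the order was not the same. In the order rose, did not pass and fell, regulators had 12.1%, 6.59% and 9.62% (of 265, 167 and 52 genes). Receptors had 12.8%, 14.7% and 8.64% (of 94, 75 and 81). Secreted proteins had 8.82%, 3.125% and 20.0% (of 34, 64 and 65), so the share was highest among those that fell. These shares were not tested. Of the 4 genes shown, Snhg12 reaches the minimum of 6 bases. The marked run of 2410006H16Rik is the end of a longer run of C and T that opens more than 3 bases before the start, so its length depends on that limit. Annotated starts may differ from those used in these cells, and the minimum of 6 bases was chosen after the sequences had been seen.

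The share of promoters with a forkhead motif was highest for the genes with the largest rises, which is given as a description without a test. The motif searched was GTAAACA, the core bound by FOXO proteins and many other forkhead factors, on both strands, in the 300 bases from 250 before to 50 after each start. It was present for 2.17% of the genes with a log2 difference below -2, 1.97% between -2 and -1, 2.58% between -1 and 0, 2.82% between 0 and 1, 5.21% between 1 and 2 and 9.42% above 2. In counts, 18 of 191 genes above 2 and 5 of 231 below -2 held it. The share over all 27025 genes of the table was 4.05%, and over the 9281 tested genes 2.96%. The same letters in reverse order, ACAAATG, served as a motif of equal base composition and were present for 3.46%, 2.46%, 2.39%, 2.68%, 2.67% and 2.62% in the same order. The E-box CACGTG, the site of TFEB, MITF and other helix-loop-helix factors, varied only from 10.8% to 12.6% over the same bins, and the mean GC content from 58.3% to 61.6%. A match describes the letters of a window and is not a bound site. The motifs were chosen with the fold changes known.

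**Figure D5:**
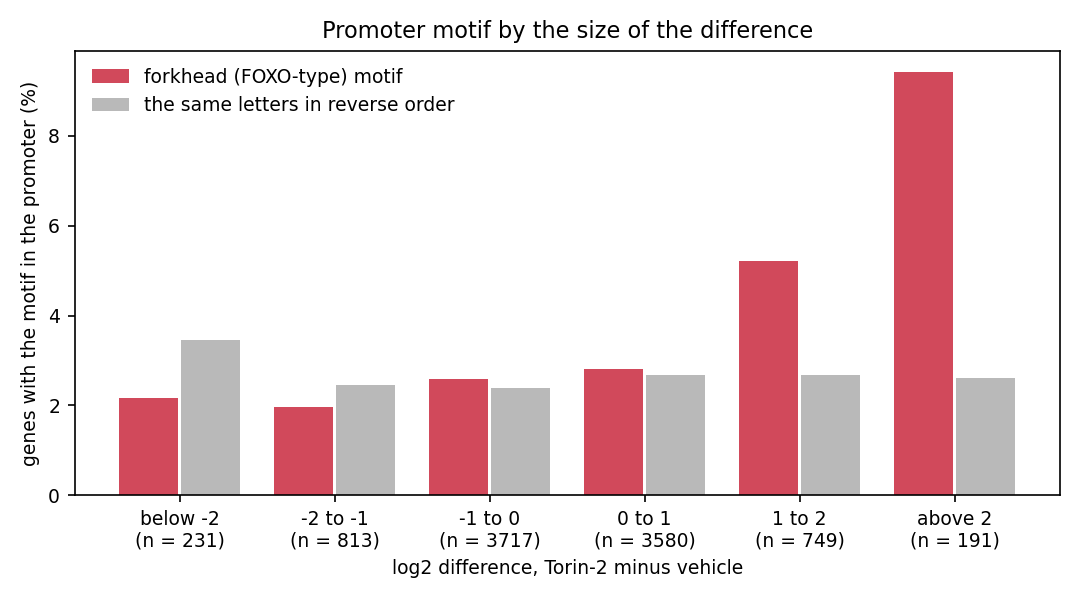
Share of genes (%) whose promoter window holds the forkhead motif (red) or the same letters reversed (grey), by bins of the log2 difference between Torin-2 and vehicle, with the number of genes under each bin. The forkhead motif goes from 2.17% in the lowest bin to 9.42% in the highest, while the reversed letters lie between 2.39% and 3.46%.

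Promoter pieces of 5 genes, 1 or 2 from each of the classes of regulators, receptors and secreted proteins, show the motif in its place. The pieces lie wholly before the annotated start and are read 5′ to 3′ on the gene's strand (RefSeq, GRCm38.p6), with the motif or its reverse complement in capitals.
Klf9: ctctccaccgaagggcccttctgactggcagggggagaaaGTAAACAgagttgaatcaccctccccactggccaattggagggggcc
Junb: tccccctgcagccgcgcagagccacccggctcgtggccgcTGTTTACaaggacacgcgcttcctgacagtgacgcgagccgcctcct
Fpr1: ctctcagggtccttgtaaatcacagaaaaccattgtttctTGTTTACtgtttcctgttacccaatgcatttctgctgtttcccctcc
Prss46: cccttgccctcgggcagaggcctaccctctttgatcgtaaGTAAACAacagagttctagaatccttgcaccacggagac
Mmp13: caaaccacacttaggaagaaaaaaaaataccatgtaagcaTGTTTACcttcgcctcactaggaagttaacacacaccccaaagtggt
They lie at chr19:23141086-23141172 (plus strand), chr8:84978837-84978923 (minus), chr17:17883983-17884069 (minus), chr9:110844427-110844505 (plus) and chr9:7272393-7272479 (plus), and their motifs begin 100, 135, 90, 39 and 81 bases before the start. Junb, an AP-1 factor, read 50.6, 42.5 and 52.2 CPM with vehicle and 177, 183 and 176 CPM with Torin-2 (1.88 ± 0.08), and 183 ± 13.9 CPM with rapamycin. Fpr1, the formyl peptide receptor, read 0.642, 0.388 and 0.433 CPM with vehicle and 3.37, 3.35 and 1.44 CPM with Torin-2 (2.44 ± 0.39). Klf9, Prss46 and Mmp13 have their vehicle and Torin-2 values above. With rapamycin Klf9 read 13.4 ± 1.86 CPM, Fpr1 1.97 ± 0.408 CPM and Mmp13 98.7 ± 8.67 CPM, each above its vehicle libraries. The direct difference of Torin-2 from rapamycin did not pass for Klf9, Junb and Fpr1 (adjusted p = 0.0854, 0.743 and 0.294, edgeR, Benjamini-Hochberg). It passed for Prss46 and Mmp13. These 5 were taken because they rose and hold the motif, so they say nothing of how often it occurs. Among regulators, 10 of 265 that rose, 0 of 52 that fell and 4 of 167 that did not pass held it. For receptors the counts were 3 of 94, 2 of 81 and 4 of 75 in the same order. For secreted proteins they were 2 of 34, 3 of 65 and 2 of 64. Over all genes tested they were 124 of 3071, 77 of 3199 and 74 of 3011. The counts within the classes are small.

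Signalling proteins inside the cell held more rises than falls. Over the class, 116 rose, 61 fell and 92 did not pass of 269, at a median of 0.20. Rgs1, which ends signalling by G proteins of chemokine receptors, read 83.2, 79.3 and 96.5 CPM with vehicle and 1032, 954 and 1662 CPM with Torin-2 (3.82 ± 0.24, adjusted p = 5.79e-08, edgeR, Benjamini-Hochberg). Src rose from 1.38 ± 0.253 to 6.95 ± 1.51 CPM and read 1.63 ± 0.635 CPM with rapamycin. Of the adaptors downstream of such kinases, Gab2 rose from 53.9 ± 7.48 to 143 ± 16.98 CPM and Sh2b3 from 29.6 ± 1.07 to 95.8 ± 2.23 CPM. Over the list of Src family, Syk, Btk and adaptor genes, of 36 tested, 19 rose, 8 fell and 9 did not pass. Its log2 differences ran from -3.17 to 2.32. Socs1, the feedback inhibitor of JAK kinases, fell from 2.81 ± 0.427 to 0.595 ± 0.180 CPM. The mRNA decay factors Zfp36l1 and Zfp36l2 parted, at -1.39 and 1.83, although Zfp36l1 shares 55.9% of its exon bases with Gm26669. TRIM proteins, ubiquitin ligases of antiviral defence among them, had 21 rises and 4 falls of 40, led by Trim36 (2.75 to 13.5 CPM). Rab GTPases of vesicle traffic held more falls than rises, with 23 falls and 14 rises of 45, Rab1a of the early secretory route falling from 628 ± 30.3 to 290.3 ± 21.8 CPM and Rab9 of the late endosome rising from 32.8 ± 0.851 to 137 ± 7.85 CPM.

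Transporters leaned downwards. Of 199 solute carriers tested, 92 fell and 52 rose, and 39 against 14 did so by at least 2-fold. Slco2b1, an organic anion carrier, had 639 reads in the vehicle libraries and 10 in the Torin-2 libraries (11.8, 8.01 and 9.58 against 0, 0.213 and 0.247 CPM, -5.88 ± 0.49). Slc26a11, a sulfate and anion carrier, rose from 13.3 ± 2.24 to 72.3 ± 2.31 CPM and read 14.6 ± 2.91 CPM with rapamycin. Slc4a2, an anion exchanger whose exons overlap those of Fastk in part, rose from 6.58 ± 0.728 to 108 ± 4.89 CPM and read 11.1 ± 3.28 CPM with rapamycin. Among ion channels, Trpm2, a calcium channel opened by oxidative stress, fell from 8.27 ± 1.24 to 1.41 ± 0.457 CPM, and Trpm7, a magnesium-permeable channel with a kinase domain, rose from 40.1 ± 3.39 to 109.9 ± 2.34 CPM. Kcnn4, a calcium-activated potassium channel, fell from 112 ± 7.62 to 54.5 ± 5.37 CPM.

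Genes of the cell's structure were among those that changed by at least 2-fold at high counts. Vim, vimentin, read 1222, 1211 and 1239 CPM with vehicle and 4252, 4031 and 4509 CPM with Torin-2 (1.80 ± 0.11, adjusted p = 6.67e-08, edgeR, Benjamini-Hochberg). Actg1, γ-actin, rose from 1512 ± 129.5 to 4911 ± 308 CPM, and Tmsb4x, which sequesters actin monomers, fell from 3247 ± 313 to 1187 ± 132 CPM. Prdx1, a peroxidase, fell from 4675 ± 285 to 1909 ± 183 CPM, and Eef1a1, a translation elongation factor, rose from 6267 ± 155 to 12792 ± 165 CPM, with the limit that many near-identical pseudogenes of Eef1a1 can share its reads.

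For these genes the direct test of Torin-2 against rapamycin passed in most cases. Over all genes 48.2% passed that test. Of the 149 tested genes named here, 130 passed it (edgeR, Benjamini-Hochberg), a share that reflects a choice of genes by their Torin-2 values and is read no further. Genes for which the Torin-2 libraries stood apart while the rapamycin mean lay nearer to vehicle included Il1rn, Cd33, Prss46, Src and Dnmt3a, and genes at which rapamycin lay on the other side of vehicle from Torin-2 in mean included Klf2, Igf1 and Ccl3. Other named genes did not pass the direct test and had rapamycin means near those of Torin-2. Among them were Junb, P2ry12, Cd300lf, E2f8, Thbd, Spic and Eef1a1. With rapamycin E2f8 read 0.656 ± 0.175 CPM, Thbd 42.9 ± 8.38 CPM, Spic 1.66 ± 0.273 CPM and Eef1a1 13684 ± 982 CPM. Rapamycin and Torin-2 share their vehicle libraries in any such side-by-side reading.

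The identifiers and positions of the genes on which the account turns most are given from GENCODE M21 (GRCm38), each as a whole gene with its exons and introns. Among regulators these are Cited2 (ENSMUSG00000039910, chromosome 10 from 17723218 to 17725674, plus strand), Crebrf (ENSMUSG00000048249, chromosome 17 from 26715650 to 26776635, plus strand), Egr2 (ENSMUSG00000037868, chromosome 10 from 67535475 to 67542188, plus strand) and Klf2 (ENSMUSG00000055148, chromosome 8 from 72319033 to 72321656, plus strand). Among receptors they are Cd33 (ENSMUSG00000004609, chromosome 7 from 43524216 to 43544428, minus strand), Fcgr2b (ENSMUSG00000026656, chromosome 1 from 170958617 to 170976547, minus strand), Cd83 (ENSMUSG00000015396, chromosome 13 from 43784775 to 43803132, plus strand) and P2ry13 (ENSMUSG00000036362, chromosome 3 from 59207892 to 59210882, minus strand). Among secreted proteins they are Il1rn (ENSMUSG00000026981, chromosome 2 from 24336853 to 24351494, plus strand) and Dkk2 (ENSMUSG00000028031, chromosome 3 from 132085292 to 132180304, plus strand). The noncoding gene is 1810032O08Rik (ENSMUSG00000020812, chromosome 11 from 116671660 to 116675799, plus strand).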

How the data were processed

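The authors deposited a table of raw counts of reads per gene for 53342 mouse Ensembl identifiers in 9 libraries, with no normalisation, 3 each of Torin-2, vehicle and rapamycin. Libraries were made from total RNA with a NuGEN kit and read as 100-base pairs, per the labels' protocols. STAR 2.5.2a, bcl2fastq and FastQC, and the builds mm10 and GRCm38.p6, are named in the submitters' processing notes. No counting tool, annotation or strand setting is given in the sources used here. The table holds 0 mitochondrial genes, and 53237 identifiers matched GENCODE M21, from which gene types, positions and exon overlaps were taken.

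The analysis used edgeR 4.0.16 (R 4.3.3). Genes with enough counts by the function filterByExpr were kept (12511), libraries were scaled by TMM (factors 0.955 to 1.05), and 1 quasi-likelihood fit of the 3 group means over the 9 libraries (common coefficient of variation 9.96%) gave the contrasts Torin-2 minus vehicle and Torin-2 minus rapamycin, 2-sided, with Benjamini-Hochberg adjustment over all genes tested and a threshold of 0.05. The SE is that of the fitted log2 difference. CPM values are counts per 1000000 of the TMM-scaled library total. At 16116666 to 24044329 counts a library, 1 CPM is 15.5 to 24.3 reads, and counting error adds to the spread of genes below that level. The script was tested on simulated data. Alternatives were library totals in place of TMM, DESeq2 1.42.0, no filter on low counts, a fit of 6 libraries, a replicate block and each replicate left out.

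Deviations from the group means of same-numbered Torin-2 and vehicle libraries correlated at 0.168 to 0.364 over the 3 pairs, those of same-numbered pairs with rapamycin at 0.237 to 0.500, and those of different numbers at -0.358 to 0.162. The lowest same-numbered value, 0.168, lay only just above the highest value of different numbers, 0.162. The numbers may therefore pair the libraries, but the fit behind the values reported holds no replicate term. The fit with the replicate number as a block is given as an alternative. The labels add that bones of different animals were kept apart. The labels do not say that each replicate is a separate animal, so p-values measure the spread between these libraries.

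Members and lists were chosen with earlier results of these data known. Named genes follow a rule: the 15 largest rises and falls among genes that passed the test, with a mean of at least 5 CPM and no overlap between groups, without sex-linked, predicted, Riken or pseudogene symbols; up to 4 rises and 4 falls of at least 1 CPM and the 2 most abundant members of each list; the 8 largest rises and falls among long noncoding genes of at least 2 CPM; and the 10 most abundant genes that changed at least 2-fold. Kctd12 and Id3 lie outside it and were chosen after their values were seen. Promoters and start sequences are RefSeq's (GRCm38.p6), matched by symbol for 9281 genes tested. Some results are not reported here.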

Additional observations from a re-analysis of the deposited data

How the results depend on the processing

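Over all alternatives the genes higher with Torin-2 numbered 3705 to 4354 and the genes lower 3790 to 4359, and those changed by at least 2-fold numbered 1235 to 1487 higher and 1240 to 1437 lower. Transcription regulators numbered 296 to 340 higher and 57 to 82 lower, receptors 107 to 123 and 92 to 115, secreted proteins 39 to 65 and 73 to 105, long noncoding genes 165 to 248 and 59 to 84, and solute carriers 43 to 59 and 87 to 95. Each of these counts stayed within 1.5 times the value reported. With the replicate number as a block (the possible pairing), 8713 genes passed, of which 8168 are among the 8182 of the fit without it. Among genes named here the block changed no call but that of Gm42418. DESeq2 called 7882 genes, scaling by library totals 8152 with a shift of -0.02 in the median log2 difference, and the 6 Torin-2 and vehicle libraries alone 8181. No filter on low counts gave 8359 of 22398 genes. Leaving out 1 library gave 7511 to 8038 calls. Leaving out replicate 3 of every group, chosen after seeing the data, gave 7989. No gene named here reversed its direction under these alternatives. The calls that changed were that of Foxm1, given above, and that of Gm42418, whose log2 difference of 0.79 passed without the filter on low counts (0.80) and with the block. The cause was not tested. Genes below 1 CPM, or 15.5 to 24.3 reads a library, are the ones whose values depth limits most.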
